A study of Mus musculus with 8 samples.

Results

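The open chromatin of resting wild-type natural killer (NK) cells is described here from 36976 genomic regions. ATAC-seq, which tags accessible DNA with a transposase, was run on splenic NK cells of 4 mice wild-type for HSF1, the transcription factor of the heat shock response (WT replicates 4, 5, 6 and 7), at steady state and without any treatment. Cells were enriched on DX5 beads and sorted as CD49b+ CD3e-, 200000 NK cells went into each assay, and each library came from 1 mouse, so replicate spread is spread between mice. The labels used here give no strain, sex or age. The study also holds 4 libraries of mice with a mutated HSF1 (MUT), which enter only the count of all regions of the series. WT peaks sharing 1 bp or more were joined, which gave 51161 regions, and the 36976 with a peak in 4 of 4 lists (72.3%) were kept. Merging all libraries of the series gave 55946 regions. Nothing but presence in the 4 lists chose the members. Scores, widths, positions and genes were not used directly, though a call in all 4 lists went with higher scores and larger widths.

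NK cells are innate lymphocytes that kill stressed, infected or transformed cells with perforin and granzymes and secrete interferon gamma, and resting cells carry these programmes ready for use. Their identity depends on the T-box transcription factors EOMES and T-bet. Open chromatin marks promoters, most of which are shared between cell types, and enhancers, which lie within or between genes and differ more between cell types.

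The values available were the position of each peak and an unnamed positive score given by the authors. Scores were turned into a percentile within their own list (100 is the strongest peak), and a region's percentile is the mean over the 4 lists. Read depth is unknown for these files, so a gene without a peak is a gene where no peak was called, which is not proof of closed chromatin. The WT lists held 42695 to 46102 peaks, of which 82.7 to 89.3% fell in kept regions, and the median peak width was 399 to 411 bp. Regions found in 1 list only had a median percentile of 13.2 and a median width of 214 bp, against 58.0 and 541 bp for the kept regions. A kept region joins the peaks of 4 lists and takes each list's best percentile. That can itself raise both values, so this gap is no separate result. Over the kept regions the percentiles of any pair of libraries had a Spearman rho of 0.951 to 0.967, and the median SD of a region's percentile between libraries was 3.87. These correlations are across regions of libraries made the same way and are given as a description.

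The promoters of the 6 genes that mark NK cells are shown first, since each had a region called in all 4 libraries over its start. RefSeq sequence of build GRCm38.p6 is given for the 200 bases before the start, 5′ to 3′ along the gene. They lie at chr7:4337515-4337714 (plus strand) for Ncr1, chr14:56262335-56262534 (minus strand) for Gzmb, chr10:61297636-61297835 (plus strand) for Prf1, chr10:118440846-118441045 (plus strand) for Ifng, chr9:118477989-118478188 (plus strand) for Eomes and chr11:97115332-97115531 (minus strand) for Tbx21. For contrast, Cd3e at chr9:45009612-45009811 (minus strand) and Cd8a at chr6:71373227-71373426 (plus strand), a pair of T cell genes chosen after their values were seen, had no peak over the start in any WT list. Capitals mark 7 short words searched on both strands, so a capital run can also be the reverse complement. The T-box word is GGTGTGA, the RUNX word is TGTGGTT and the ETS word is CCGGAAG. The NF-Y word is CCAAT, the GC box is GGGCGG, the AP-1 word is TGANTCA with any base at N, and the word named for the TATA box is TATAAA. None of these words contains another, though copies can overlap, as the GC boxes of Tbx21 do. A match is a description of letters, not a bound site.
Ncr1: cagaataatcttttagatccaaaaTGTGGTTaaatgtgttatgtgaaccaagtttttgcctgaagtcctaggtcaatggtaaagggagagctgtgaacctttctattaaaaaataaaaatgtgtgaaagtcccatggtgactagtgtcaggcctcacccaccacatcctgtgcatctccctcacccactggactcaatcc
Gzmb: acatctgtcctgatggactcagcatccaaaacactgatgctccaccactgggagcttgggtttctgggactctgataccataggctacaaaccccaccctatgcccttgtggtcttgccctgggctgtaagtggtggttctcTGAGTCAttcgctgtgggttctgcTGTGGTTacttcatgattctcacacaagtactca
Prf1: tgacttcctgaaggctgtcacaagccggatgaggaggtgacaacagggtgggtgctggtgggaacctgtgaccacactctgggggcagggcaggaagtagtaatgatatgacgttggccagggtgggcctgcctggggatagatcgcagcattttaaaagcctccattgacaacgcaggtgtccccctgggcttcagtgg
Ifng: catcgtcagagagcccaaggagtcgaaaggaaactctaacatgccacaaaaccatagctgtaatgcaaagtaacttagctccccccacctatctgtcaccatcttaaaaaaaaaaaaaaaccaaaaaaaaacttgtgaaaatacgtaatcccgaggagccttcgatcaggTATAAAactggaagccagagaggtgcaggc
Eomes: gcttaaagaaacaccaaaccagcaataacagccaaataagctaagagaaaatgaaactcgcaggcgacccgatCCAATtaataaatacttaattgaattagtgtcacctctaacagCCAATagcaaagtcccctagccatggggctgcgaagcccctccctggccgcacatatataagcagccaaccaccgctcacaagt
Tbx21: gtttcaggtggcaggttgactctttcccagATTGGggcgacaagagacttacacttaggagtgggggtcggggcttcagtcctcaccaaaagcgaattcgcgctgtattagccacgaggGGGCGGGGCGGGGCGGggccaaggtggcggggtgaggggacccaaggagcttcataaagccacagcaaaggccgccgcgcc
Cd3e: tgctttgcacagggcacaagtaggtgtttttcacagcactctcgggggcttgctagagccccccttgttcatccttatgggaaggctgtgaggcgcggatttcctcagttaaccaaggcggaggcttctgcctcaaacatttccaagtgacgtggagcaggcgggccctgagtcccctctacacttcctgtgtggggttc
Cd8a: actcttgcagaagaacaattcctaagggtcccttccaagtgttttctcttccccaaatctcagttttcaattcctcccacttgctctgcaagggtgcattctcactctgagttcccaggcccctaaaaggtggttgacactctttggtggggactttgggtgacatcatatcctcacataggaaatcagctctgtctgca

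The RUNX word lay 176 bases before the start of Ncr1 and 34 bases before that of Gzmb, which also had the AP-1 word at 58 bases. Ifng had the TATA word at 30 bases. Eomes had the NF-Y word at 127 and 84 bases, and Tbx21 had it at 170 bases with GC boxes at 81, 76 and 71 bases. No word was found in the printed stretches of Prf1, Cd3e and Cd8a, which says only that these letters are absent from these windows. The promoters of Ncr1 and Gzmb were poor in CpG (observed over expected ratio 0 and 0.103 over the 300 bases around the start), that of Prf1 had 0.203 and that of Ifng 0.443, whereas Eomes and Tbx21 had 0.607 and 0.754.

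All 6 marker genes were open at a gene end, defined as a kept region reaching within 1 kb of either end of the gene, against 51.6% of all 21883 protein-coding genes. With equal numbers of peaks taken from each list 5 of the 6 were open, and with the upper 50% of each list 4. They differed in how strong the region over the start was and in where the strongest region lay. Ncr1 encodes the activating receptor NKp46. Its start region (chr7:4337373-4337968) stood at percentiles 94.8, 92.0, 93.0 and 96.6 in replicates 4, 5, 6 and 7 (mean 94.1 ± 2.00, SD, n = 4). A region 14174 bp before the Ncr1 start (chr7:4323189-4323893) stood at 95.9, 96.9, 94.5 and 93.7, so these were the strongest regions of Ncr1 in every library and their ranges overlapped. Gzmb, the granzyme B gene, had a start region (chr14:56261895-56262831) at 76.2, 77.3, 78.0 and 79.6. A region 22184 bp before the Gzmb start (chr14:56284135-56284900) reached 90.2, 85.7, 87.5 and 92.0, above the start region in 4 of 4 libraries. Prf1 encodes perforin, the pore-forming protein. Its start region (chr10:61296895-61297924) stood at 72.9, 74.3, 73.0 and 73.8, and a region 1680 bp beyond the far end of Prf1 (chr10:61306058-61306670) at 74.4, 73.5, 74.4 and 73.4. The Prf1 values of these regions overlapped and spanned a narrow range.

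Ifng, the interferon gamma gene, had 15 linked regions, each assigned by the nearest gene end within 50 kb. Only 0.251% of protein-coding genes had as many. By this rule a gene with distant neighbours can collect more regions, and the part of spacing in these numbers was not tested. With links within 10 kb Ifng had 4 regions, Ncr1 and Gzmb 2 each and Eomes 5, while Tbx21 kept 8 and Prf1 kept 3. The start region of Ifng (chr10:118440658-118441440) stood at percentiles 59.9, 60.0, 63.3 and 59.2. The region 5418 bp before the Ifng start (chr10:118435281-118435974) stood at 89.9, 91.8, 93.3 and 95.5, higher than the start region in every library. Regions of Ifng 21876 bp before and 36425 and 45868 bp after the start had mean percentiles of 82.0 ± 0.819, 78.1 ± 7.49 and 78.6 ± 8.0 (SD, n = 4). All of these means lay above that of the start region, and replicate 7 was the lowest of the 4 at the pair of regions downstream.

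The T-box factor genes had the weakest start regions of the 6. At Eomes the region over the start (chr9:118478013-118478315) stood at percentiles 17.6, 18.1, 18.0 and 27.5 (mean 20.3 ± 4.82), while a broader region of Eomes 778 bp downstream (chr9:118478463-118479471, 1009 bp wide) stood at 45.9, 46.2, 44.2 and 47.2. The strongest Eomes region (chr9:118450892-118451277) lay 27101 bp from the upstream gene end at 46.0, 55.4, 54.2 and 56.6. At Tbx21, which encodes T-bet, the start region (chr11:97114981-97115454) was at 4.47, 6.95, 7.59 and 9.50. A region 3140 bp before the Tbx21 start (chr11:97118111-97118831) stood at 61.4, 57.5, 58.8 and 62.2, far above it in all 4 libraries. Eomes had 7 and Tbx21 had 8 linked regions, numbers that 3.41% and 2.43% of protein-coding genes reached or passed. Gzmb had 7, Ncr1 had 6 and Prf1 had 3 linked regions (3.41%, 4.96% and 17.8% of genes had at least as many).

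**Figure D1:**
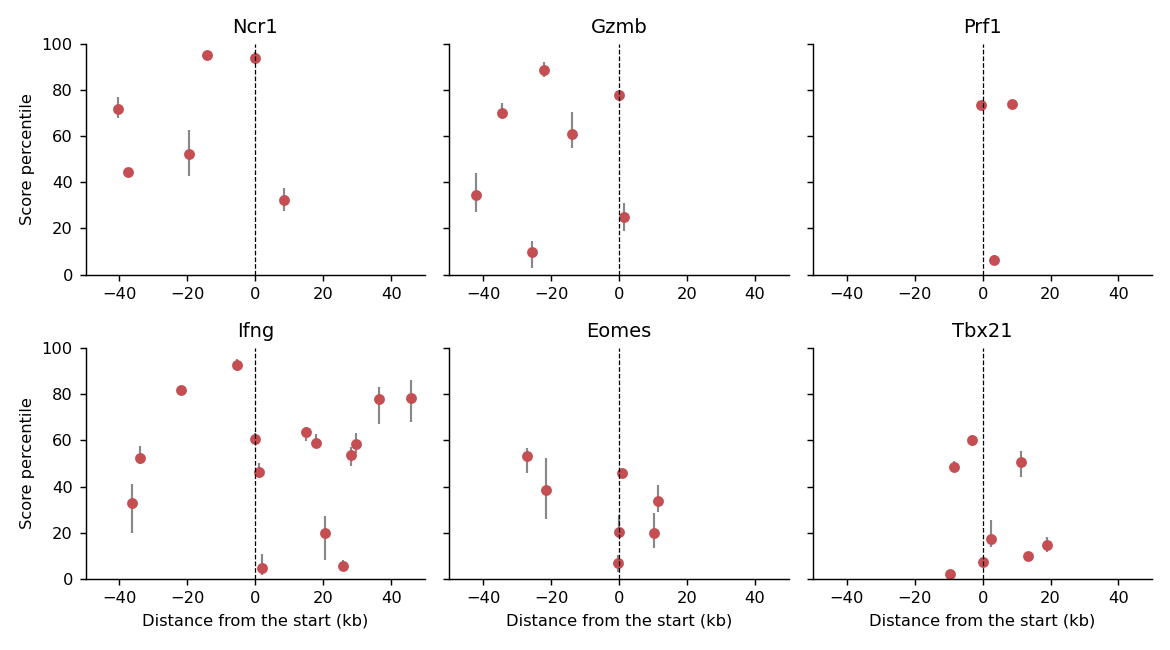
Score percentile within its own list (vertical axis) of each region linked to the 6 marker genes against its distance from the start in kb (horizontal axis, positive downstream); points are means of the 4 WT libraries and grey lines their range. The start region is among the strongest at Ncr1 (94.1), while at Ifng, Gzmb, Tbx21 and Eomes a region away from the start is the highest.

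Kept regions were spread over gene ends, gene bodies and the space between genes. By midpoint, 10929 (29.6%, 95% Wilson interval 29.1 to 30.0) lay within 1 kb of a protein-coding gene end, 15369 (41.6%, 41.1 to 42.1) elsewhere in a gene body and 10678 (28.9%, 28.4 to 29.3) between genes. These intervals cover counting error only. Beyond 50 kb from any gene end lay 5652 regions (15.3%), and 31324 (84.7%) were linked to a gene.

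Gene-end peaks were stronger and wider than the other peaks in all 4 libraries. Their median percentile was 72.2, 72.2, 70.9 and 71.3 in replicates 4, 5, 6 and 7, and that of the other peaks 43.4, 43.7, 43.8 and 43.3. These ranges of medians did not overlap, which does not mean that single peaks of the classes were separated. The mean difference was 28.1 ± 0.744 percentile points (SD, n = 4; exact two-sided sign-flip permutation test, p = 0.125). Median widths were 682, 668, 660 and 676 bp at gene ends and 356, 352, 357 and 359 bp elsewhere, a difference of 315.5 ± 9.47 bp (exact two-sided sign-flip permutation test, p = 0.125). With 4 libraries 0.125 is the smallest p that this test allows, so neither difference could pass the usual threshold. Peaks between genes had median percentiles of 44.3 to 45.2 and those in gene bodies 42.7 to 42.9, a small gap in the same direction in all 4 libraries.

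**Figure D2:**
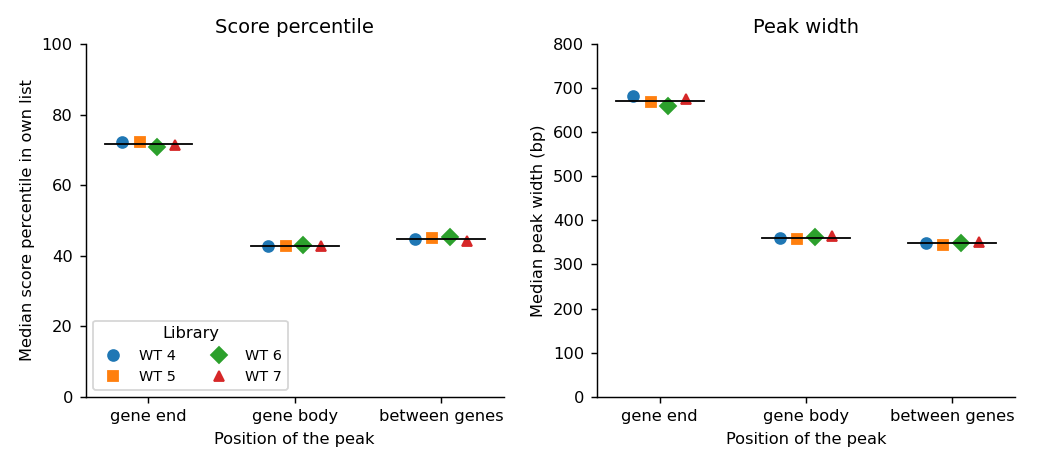
Median score percentile (left) and median peak width in bp (right) of all peaks of each WT library by position, with the mean of the 4 libraries as a line. Gene-end peaks sit at 70.9 to 72.2 and 660 to 682 bp in every library, above both other classes.

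Strength and width did not run fully in parallel. Among the 4333 regions with a mean percentile of 90 or more, 56.3% lay at gene ends, against 15.3% of the 3193 regions between percentiles 20 and 30. Median width rose from 308 bp below percentile 10 to 796 bp between 80 and 90 and was 742 bp above 90 (Spearman rho 0.613 over regions, a description).

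The 10 strongest gene-end regions lay within 186 bp of their gene end. By mean percentile the first were near Cdc25c, which encodes a cell cycle phosphatase, at 99.99, then Gcc2, Ikbkg, Alkbh6, Zfp128, Engase, Pigu, Glo1, Nckap1l and Ivd, the last at 99.9. Ikbkg encodes the NEMO subunit of the kinase that activates NF-kB, and Nckap1l the blood cell protein HEM1 of the actin regulatory WAVE complex. Most of the others are genes of general cell biology, such as Glo1 (glyoxalase) and Pigu (glycolipid anchor transfer). Away from gene ends the strongest regions were nearest to Lrfn3, Trip11, Zxdb, Ssbp2, Mta3, Dipk1b, Actr3, Fam161a, Mrps27 and Kansl1, and the one near Zxdb lay 135541 bp from its gene end.

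The widest regions had middling or low percentiles. Near gene ends they included those at Jun, an AP-1 subunit gene (2466 bp, percentile 45.3), Stat6 (2392 bp, 69.1), Lpxn (2300 bp, 54.1), Foxd2 (2262 bp, 64.8), Rdh10 (2224 bp, 49.4) and a predicted gene (2512 bp, 43.4). Within gene bodies they were in Ywhaz (2352 bp, 61.0) and Sp140 (2290 bp, 16.3). The widest of all (chr17:39843081-39846760, 3680 bp) overlapped Rn18s-rs5, a ribosomal RNA-related sequence that the RefSeq table lists as a pseudogene, and stood at percentiles 2.01, 1.94, 2.65 and 2.84 in the 4 libraries. It is the only one of the 10 whose percentile was under 10.

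Around transcription starts the regions centred just inside the gene. RefSeq starts were at hand for 17491 protein-coding genes, and 9603 kept regions (26.0%) had their midpoint within 1000 bp of one. Their median offset was 49 bp downstream (quartiles -64 and 176 bp), and 61.1% were centred downstream. The fullest 100 bp bin, with 2222 regions, was the one directly after the start. These regions had a median width of 820 bp and a median percentile of 76.2.

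**Figure D3:**
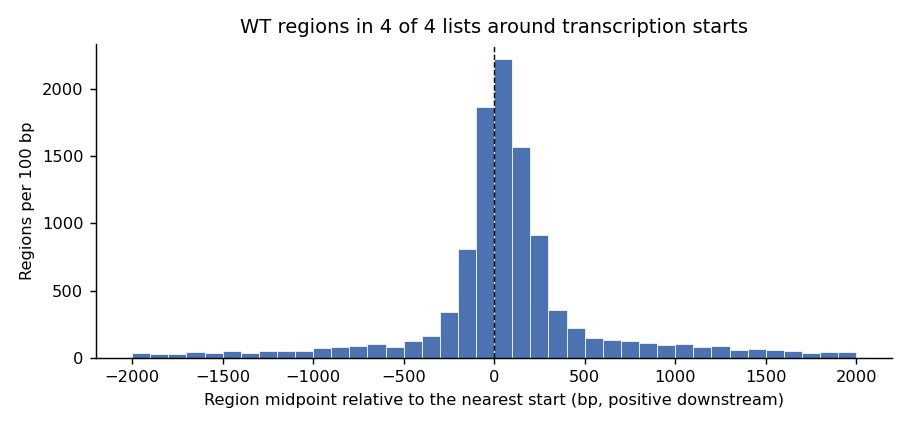
Number of kept WT regions per 100 bp (vertical axis) by the distance of their midpoint from the nearest RefSeq start of a protein-coding gene in bp (horizontal axis, positive downstream). The highest bar, 2222 regions, lies between 0 and 100 bp.

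Of the genes with a start, 8917 (51.0%) had a kept region over a start window of 250 bases before to 50 after it, 456 had peaks in fewer lists only and 8118 had none. Promoter sequence separated these classes. Taking the outermost start of each gene, the median CpG ratio was 0.802 in 8615 open windows and 0.226 in 8428 windows without a peak, with median GC contents of 62.0% and 49%. The share of open windows was 4.35% of 3996 promoters with a ratio under 0.2, 16.2% between 0.2 and 0.4, 46.2% between 0.4 and 0.6, 75.3% between 0.6 and 0.8, and 87.2% of 4984 promoters above that. The promoters of Ncr1 and Gzmb, open in all 4 libraries, have ratios under 0.2, the class in which 4.35% were open.

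Short words in the windows of 300 bases differed in the same comparison. The ETS word was in 11.9% of all promoters, 21.3% of open ones and 2.69% of those without a peak, and among promoters with a CpG ratio of 0.6 or more in 23.2% and 4.53%. Within the open windows it was in 26.3% of the 4309 with the higher percentiles and 16.3% of the 4306 others. The GC box was in 46.3% of all promoters, 69.7% of open and 21.7% of uncalled ones, a gap that narrowed to 75.3% and 66.8% at a CpG ratio of 0.6 or more. The TATA word ran the other way, with 13.3% of all, 5.99% of open and 20.9% of uncalled promoters. The AP-1 word was in 7.03%, 4.03% and 10.1%, the RUNX word in 4.83%, 3.45% and 6.19%, the T-box word in 3.68%, 3.19% and 4.18% and the NF-Y word in 39.2%, 39.9% and 38.8%. At a CpG ratio of 0.6 or more the NF-Y word was in 39.4% of open and 30.9% of uncalled promoters, and within the open windows in 47.2% of those with the higher percentiles and 32.7% of the others. In the same CpG class the RUNX word was in 2.74% of open and 2.38% of uncalled promoters and the T-box word in 2.87% and 3.50%. The TATA word was there in 5.28% and 8.59% and the AP-1 word in 3.29% and 4.29%. Below a ratio of 0.6, open and uncalled promoters had the TATA word in 8.99% and 23.1% and the AP-1 word in 7.16% and 11.1%. The RUNX word was then in 6.44% and 6.86% and the T-box word in 4.55% and 4.30%. Base composition differs between open and uncalled promoters, and its part in the shares was not tested beyond the split by CpG ratio.

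Across protein-coding genes, 11286 of 21883 were open at a gene end, 2807 were partly open (a peak in at least 1 list somewhere from 1 kb before to 1 kb after the gene, but no kept region at an end) and 7790 (35.6%) had no called peak and are called closed here. Closed genes were short, with a median length of 6841 bp against 21725 bp for open and 36284 bp for partly open genes. The closed rule spans the whole gene, so a longer gene has more room for a peak. How much of the length gap comes from this rule was not tested. In 1242 open genes (11%) the region at the gene end was nearer to the end of another gene. The gene-end rule misses promoters inside long RefSeq gene models: with the start windows counted too, a rule added after seeing the data, 11898 genes were open.

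The share of open genes varied between chromosomes. On the autosomes 43.3% (chromosome 7) to 60.2% (chromosome 11) of protein-coding genes were open. On chromosome X 33.6% of 966 genes were open, with 0.800 kept regions per gene against 1.2 on chromosome 7, the lowest autosome. Chromosome Y had 3 kept regions for 256 genes.

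Large receptor families of other tissues were closed. No peak was called in 1095 of 1110 olfactory receptor genes (98.6%), in 350 of 353 vomeronasal receptor genes, in all 56 keratin-associated protein genes and all 13 interferon alpha genes, against 35.6% of all genes. Many of these are near-identical copies, where counting could be affected by reads that map to several places; the authors' read filters are not stated in the labels used. Families of general cell machinery lay at the other extreme. Open at a gene end were 82 of 97 genes named Rpl or Rps with a number (84.5%), the symbols of cytosolic ribosomal proteins. This symbol rule can also take in genes of other proteins. Also open were 75 of 78 mitochondrial ribosomal protein genes (96.2%), 37 of 40 proteasome subunit genes (92.5%) and 37 of 40 complex I genes (92.5%). Among all genes 51.6% were open. Among the 16 housekeeping genes 14 were open. Actb and Ywhaz were partly open. Actb had 6 linked regions, of which 1 lay in the gene, 1691 bp from its nearer end, at percentiles 53.8, 56.1, 47.5 and 52.6. The other 5 lay outside it, the strongest 12829 bp from the gene end at 99.7, 99.6, 99.7 and 99.9. Ywhaz had 5 linked regions, 2 of them in the gene and more than 9 kb from either end.

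Of 137 genes in 7 lists of NK cell biology, 108 (78.8%) were open, 22 partly open and 7 closed, against 51.6% open and 35.6% closed among all genes. Of the lists, cytokine and chemokine genes had 10 of 11 open, with only Tnf partly open, and cytotoxic granule and death ligand genes 14 of 16, with Srgn (serglycin, the granule proteoglycan) and the granzyme inhibitor gene Serpinb9 partly open. Cytokine receptors and JAK-STAT genes had 25 of 28 open, homing and adhesion genes 16 of 18 and NK lineage transcription factors 20 of 23. The lineage factors Tcf7, Gata3 and Ets1 were partly open. Stat4, Stat5b and Il12rb1 among the cytokine signalling genes and Ccr2 among the homing genes were also partly open, and Ly6c2 was closed. Srgn, Serpinb9, Gata3 and Stat5b each had a kept region over a start window, at mean percentiles 35.9, 42.6, 8.69 and 81.4. Ets1 and Il12rb1 had no RefSeq start at hand. Of the open genes of these lists, Gzmc, Lta, Bcl11b and Zbtb32 had no peak over a start window in any WT list. Zbtb32 was open only through a region nearer to another gene, and Il7r had start peaks in fewer lists only.

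Receptor genes had more partly open members. Among activating receptors and adaptors 14 of 21 were open and 0 closed, and the partly open ones were Fcgr3 (CD16), Slamf6, Slamf7, Cd226 (DNAM-1), Cd160, Klra4 and Klra8. Fcgr3, Slamf7 and Cd160 had a kept region over a start window, so 17 of 21 were open by gene end or start. Among inhibitory receptors and checkpoints 9 of 20 (45%) were open, against 51.6% of all genes, but 12 of 20 by gene end or start, against 11898 of 21883 genes, and 12 of 20 with ends taken within 2 kb, against 11996. The direction against all genes thus turned with the rule. Closed in this list were Klra3, Klra5, Klra6, Klra9, Ceacam1 and Pilra, and partly open were Ctla4, Pdcd1, Klrc1, Klra7 and Lair1, the last 3 with a kept region over a start window. Of the 13 Ly49 genes, the Klra family of MHC class I receptors, 1 was open (Klra1), 3 were partly open and 9 closed, although 11 had linked regions nearby. Ly49 genes are close copies of each other that individual NK cells express in varied combinations, so their values are uncertain. In bulk cells, fewer cells with an open site and less open DNA per cell cannot be told apart.

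Open and closed members stood side by side within families. The granzyme genes Gzma, Gzmb, Gzmc, Gzmk and Gzmm were open, Gzmf was partly open, and Gzmd, Gzme, Gzmg and Gzmn, neighbours of Gzmb and Gzmc on chromosome 14, had no called peak. Gzmc had no peak over its start in any WT list and was open through its 1 linked region, near a gene end. Gzma had 8 linked regions and Gzmb 7. Of 25 CC chemokine ligand genes 8 were open (32%, against 51.6% of all genes), among them Ccl3, Ccl4 and Ccl5, the chemokines that NK cells secrete, with 9, 4 and 8 linked regions. Ccl2, Ccl7, Ccl11, Ccl12 and Ccl8, which lie next to each other on chromosome 11, had no called peak and 0 linked regions. These family members were named after their values were seen.

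**Figure D4:**
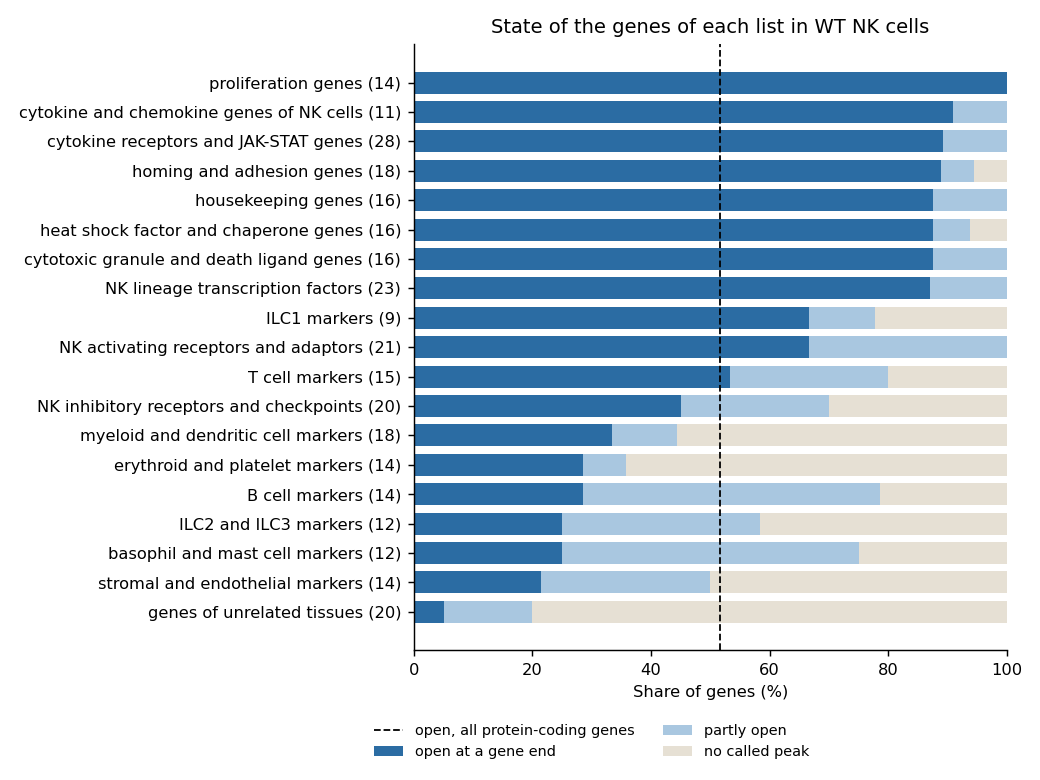
Share of the genes of each list (horizontal axis, percent; number of genes in parentheses) that were open at a gene end, partly open or without a called peak in WT NK cells, with the share of open genes among all protein-coding genes (51.6%) as a dashed line. All 14 proliferation genes were open, and 16 of the 20 genes of unrelated tissues had no called peak.

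Fewer markers of other cells were open. Over 98 genes in 7 lists of other lineages 31 (31.6%) were open, against 51.6% of all genes. Another 39 (39.8%) were closed, a share near the 35.6% of all genes. Of the 98 genes 2, Gata3 and Klrg1, are also in the NK lists. Of 20 genes of unrelated tissues, such as Alb (liver albumin), Ins2 (insulin) and Prm1 (sperm protamine), 16 were closed and only the muscle gene Ckm was open, through a region at its far end. Without replicate 7 the number of open genes in this list was 2. Among myeloid and dendritic markers 6 of 18 were open. The cytokine receptor gene Flt3 and the transcription factor gene Cebpa had start regions at mean percentiles 77.0 and 73.2. Cd14, Cd68, Cebpe and Xcr1 were open at an end, Xcr1 through a region nearer to another gene. Another 10 were closed, including the neutrophil genes S100a8, S100a9, Elane, Mpo and Ly6g and the macrophage genes Lyz2 and Adgre1. Of the erythroid and platelet markers 4 of 14 were open: the transferrin receptor gene Tfrc with a start region at 93.3, Klf1 with a region at 83.1, Itga2b and Epor. Tfrc is also in the housekeeping list. Klf1 and Epor had no peak over the start, and Itga2b had a start region at 23.5. The 9 closed ones included the globin genes and the platelet factor gene Pf4. Stromal and endothelial markers had 3 of 14 open, and 0 of 8 with a known start had a kept region over it. Of 12 ILC2 and ILC3 markers 3 were open, 4 partly open and 5 closed, the last including the cytokine genes Il17a, Il22 and Il5. Of the open ones, Il1rl1 and Il17rb were so through regions nearer to another gene. Counting only regions linked to the gene itself left 1, Klrg1.

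The sort gate could admit other CD49b+ cells, and the markers of basophils were mixed. Basophils carry CD49b, and of 12 basophil and mast cell markers 3 were open, 6 partly open and 3 closed. The open ones, Il3ra, Kit and Gata2, each had a kept region over the start, at mean percentiles 80.1, 41.9 and 29.2. The partly open Hdc also had a region over its start, at 27.4. Among all genes 51.6% were open and 35.6% closed. The basophil protease gene Mcpt8 had a peak in 2 of 4 libraries (percentile 20.01 in replicate 5 and 28.4 in replicate 7). Fcer1a, the IgE receptor chain, and Il4 had a peak in replicate 7 only, at 2.65 and 12.5, and Prss34 and Ms4a2 had none. Other genes of this list had strong kept regions: Hdc (histidine decarboxylase) had one within the gene (chr2:126605983-126606557) at 99.8, 99.4, 99.5 and 99.8, and Cd200r3 one (chr16:45044697-45045270) at 98.3, 99.2, 99.3 and 98.7. Of 9 matched ILC1 markers 6 (66.7%) were open, several of which NK cells share, such as Tnfsf10 (TRAIL). B cell markers had 4 of 14 open (28.6%), 7 partly open and 3 closed. Bank1 and the complement receptor gene Cr2 had start regions at mean percentiles 92.8 and 70.9, and Pou2af1 one at 27.0. The partly open Cd22 and Pax5 had linked regions of up to 91.8 and 76.3. Ms4a1 (CD20) had no called peak, and Cd79a was open through a region at percentiles near the bottom (1.72, 2.02, 15.1 and 0.169) that was nearer to another gene. What these cell types add to the other results was not tested.

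The sort selected against the CD3e protein, and the genes of the CD3 chains still had kept regions. Of 15 T cell markers 8 were open (53.3%, near the 51.6% of all genes) and 3, Cd8a, Cd8b1 and Foxp3, closed. Besides the CD3 genes, Lat, Zbtb7b, Ubash3a and Cd5 were open, with start regions at mean percentiles 95.1, 85.5, 70.7 and 45.2. Cd28 was open too and had 8 linked regions of up to 98.2. Cd3e had no peak over its start, but beyond its far end a region (chr9:44998007-44998540) stood at percentiles 88.4, 94.4, 92.3 and 95.4. Cd3d likewise had no peak over its start and a region at its far end (chr9:44986189-44987359) at 90.3, 87.4, 89.6 and 92.7. Cd3g had a region over its start (chr9:44980317-44980604) at 46.3, 39.1, 46.4 and 34.3, below the others in every library. Cd4 had a peak in 1 of 4 libraries, at percentile 16.4 in replicate 5.

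Genes of cell division were open in these resting cells. All 14 proliferation genes, among them Mki67, Top2a, Ccnb1 and the DNA clamp gene Pcna, were open, against 51.6% of all genes. Their median of 1 linked region was also the median over all genes. Mki67 had a start region at percentile 85.9 and Ccna2 (cyclin A) one at its gene end at 99.5. Heat shock factor and chaperone genes had 14 of 16 open (87.5%, against 51.6% of all genes), with a median of 2 linked regions. Hsf2 was partly open, with a kept region over a start window, and the small heat shock gene Hspb1 was closed.

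The number of linked regions per gene varied between the lists. Of all protein-coding genes 12902 (59.0%) had a linked region, with a median of 2 and a mean of 2.43 among them, 90% having 5 or fewer. Genes with 5 or more made up 7.33% of all genes and 71 of the 137 NK list genes (51.8%). By list they were 19 of 23 NK lineage transcription factors (82.6%), 12 of 18 homing and adhesion genes (66.7%), 15 of 28 cytokine receptor and JAK-STAT genes (53.6%), 5 of 11 cytokine and chemokine genes (45.5%), 7 of 16 granule genes (43.8%), 8 of 21 activating receptors (38.1%) and 5 of 20 inhibitory receptors (25%). Against these stood 0 of 14 proliferation genes, 0 of 16 chaperone genes, 3 of 16 housekeeping genes and 6 of the 98 genes of other lineages (6.12%). Within these 98, 3 of 12 ILC2 and ILC3 markers (25%) had 5 or more, the share of the inhibitory receptors. The ILC1 markers, which are not among the 98, had 3 of 9 (33.3%). Of these ILC genes with 5 or more, Gata3, Klrg1 and Tnfsf10 are also in the NK lists. The bound of 5 was chosen after the distribution over all genes was seen. Median gene lengths were 18076 bp in the NK lists, 15044 bp in the lists of other lineages and 17170 bp over all genes. By list they ran from 4741 bp for the cytokine and chemokine genes to 31756 bp for the cytokine receptor and JAK-STAT genes and 81422 bp for the transcription factors, against 5422 bp for the chaperone genes, 5637.5 bp for the housekeeping genes and 14281.5 bp for the proliferation genes. Length thus moved with several of these shares, and its part in them was not tested. The number of regions and the gene length had a Spearman rho of 0.279 over linked genes, a description across genes.

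The strongest linked region lay away from gene ends in 103 of 135 linked NK list genes (76.3%) against 41.6% of all linked genes, and in 1 of 14 proliferation genes, 3 of 14 chaperone genes and 4 of 16 housekeeping genes. The median percentile of open start windows was 61.0 in the NK lists and 80.4 over all genes. It was 85.3 for proliferation genes, 87.3 for the genes with Rpl and Rps symbols and 89.8 for complex I. The median percentile of the strongest region per gene was 78.4 in the NK lists and 80.5 over all genes. The lists of other lineages had 38 of 55 (69.1%) with the strongest region away from gene ends. These differences between lists are described by counts, with no test.

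**Figure D5:**
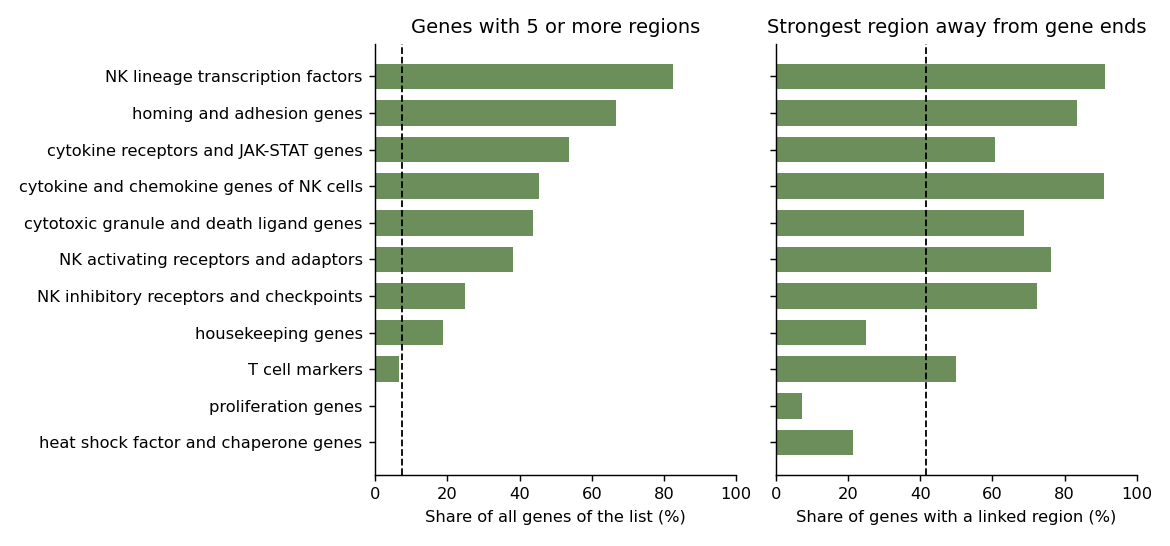
Left, share of genes with 5 or more linked regions (percent of all genes of the list); right, share of linked genes whose strongest region lies away from gene ends (percent), for lists with at least 10 linked genes, with the value over all protein-coding genes dashed (7.33% and 41.6%). NK lists lie to the right of both lines, and proliferation and chaperone genes to the left.

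The genes with the most linked regions included signalling and transcription factor genes. Nfatc1, a calcium-responsive transcription factor, and Rapgef1, an exchange factor for the small GTPase RAP1, had 27 each. Lrrk1 and Prex1, an exchange factor for RAC, had 23, and Pik3r1, the regulatory subunit of phosphoinositide 3-kinase, and Smad3, the transducer of TGF-beta signals, had 22. Fam107b had 21, Sfi1 had 20, and Fam53b, Irf8, Prkcq and Rin3 had 19 each. Irf8 is a lymphoid and myeloid transcription factor, and Prkcq encodes the kinase PKC theta. Irf8 is 20337 bp long, the shortest gene of the 12, and Prex1, at 147488 bp, the longest. Among list genes Runx3 also had 19, with a start region at percentile 97.8, and Runx1, Ikzf1 and Irf2 had 18 each. The receptor gene Klrb1c (NK1.1) had 16 and Fasl had 14. In all, 259 genes (2.01% of linked genes) had 10 or more regions and together held 10.5% of the linked regions; their median length was 91661 bp against 23641 bp for all linked genes.

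The integrin gene Itga2 encodes CD49b, on which the cells were sorted. It had 12 linked regions, of which the start region (chr13:114931330-114932461) stood at percentiles 58.0, 59.1, 63.5 and 64.7. A region 15993 bp inside Itga2 (chr13:114915696-114916517) reached 88.4, 89.7, 92.6 and 91.7, above the start region in 4 of 4 libraries. Checkpoint genes not open at an end could still have strong regions nearby: Pdcd1, which encodes PD-1, had no peak over its start and a region 39394 bp before it (chr1:94091679-94092214) at 99.1, 96.1, 97.0 and 97.4. The link of a region to a gene is by distance and does not show which gene it acts on.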

How the data were processed

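The authors deposited 1 peak list per library with a position and an unnamed score per peak; the submitters' processing notes list mm10 (GRCm38) as build and name DiffBind 3.0.12, DESeq2, Bowtie2 2.3.4.1 and Trimmomatic, without roles. The peak caller, its thresholds and read filters were not given in the sources read, and all peaks were at least 200 bp wide. WT peaks overlapping by 1 bp were merged, and regions in 4 of 4 lists kept. Each region was linked by its midpoint to the nearest end of a protein-coding gene (RefSeq, GRCm38.p6) within 50 kb. For 17491 of these genes a second RefSeq table gave starts and promoter sequences. Of 313 entries in 19 lists 311 matched. Families were found by symbol. The always-named genes were Ncr1, Eomes, Tbx21, Ifng, Gzmb and Prf1; list genes, the 12 genes with most regions, and the 10 strongest gene-end, 10 strongest other and 10 widest regions were also named, predicted genes only counted. Some items that this rule names are not reported here. The members and lists were chosen with earlier results of these data known. Library medians were compared by an exact sign-flip permutation test. Alternatives varied the score bound, list sizes, overlap, lists required, distances and libraries. The code was tested on simulated data, where the planted state was recovered for 2000 of 2000 features. Python 3.11.15 and scipy 1.17.1 were used.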

Additional observations from a re-analysis of the deposited data

Results flagged for a closer look

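Of 25 values screened across the 4 WT libraries, 1 had a library far from the others. The total width of peaks linked to Prf1 was 1888 bp in WT replicate 7, against 2096, 2064 and 2094 bp in replicates 4, 5 and 6. Chance alone marks about 1 in 20 groups in this way. The highest percentile of a Prf1 peak in replicate 7, 73.8, was also the lowest of the 4 (74.4, 74.3 and 74.4 in the others).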

How the results depend on the processing

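Peak scores set the number of regions. Restricting every list to its upper 50% by score gave 19343 regions in 4 of 4 lists. It left 308 genes with 5 or more linked regions and 16 open genes of other lineages. Open NK list genes then fell to 72 of 137 and all open genes to 9368 of 21883. The gap between these shares was narrower than the reported 78.8% against 51.6%, and the NK count sat at the bound of 1.5 used below. Genes with 5 or more regions fell to 366 with links within 10 kb. Of 92 checks of the main answers, the other 88 kept their sign or stayed within 1.5 times of the reported value. Of 300 checks of single lists and of regions per marker gene, 24 moved further, 15 of them with the upper 50% of each list, where Eomes had 0 and Tbx21 1 linked region. With 1 WT library left out, regions numbered 37600 to 38844, open genes 11319 to 11397 and open NK list genes 106 to 109, and the percentile difference was 27.9 to 28.4. Counting only regions linked to the gene itself left 10044 open genes, and counting start windows gave 118 NK list genes; both rules were chosen after seeing the data. No paired analysis was possible because only the WT libraries are compared and the replicate numbers pair no samples. Read depth is unknown, so weak sites may be missed in any list.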

Other observations

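Further gene families lay between the extremes. Of 39 Hox genes 9 were open, 9 partly open and 21 closed, and of 42 beta defensin genes 1 was open. Among 38 MHC genes 20 were open (52.6%), near the 51.6% of all genes, and among 41 interleukin receptor genes 24 (58.5%), 11 of which had 5 or more linked regions. Of 5 SLAM family genes, which encode receptors of lymphocyte contact, Slamf1 was open at a gene end and Slamf7 over a start window, with a start region at percentile 51.6. Slamf7 had 5 linked regions and Slamf6 had 2.

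Some genes of other lineages, or with partly open ends, had linked regions near the top of the lists. Il23r, a receptor gene of type 3 lymphoid cells, had a pair of regions beyond its far end, at percentiles 99.5, 98.6, 99.7 and 99.4 and at 97.1, 97.4, 99.0 and 98.1 in replicates 4, 5, 6 and 7. The NK list gene Il12rb2 (chr6:67285986-67376293), with a start region at a mean of 97.1, lies near Il23r (chr6:67422932-67491855). Which gene this pair of regions acts on was not tested. Srgn had a linked region at a mean of 96.2 and Tcf7 one at 96.2. A region 32774 bp before Epcam, an epithelial gene, stood at 99.7, 99.9, 99.7 and 99.9, and one 10293 bp before the dendritic cell gene Xcr1 at 94.8, 95.1, 95.8 and 95.8. These genes were picked after their values were seen.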
